A study of Mus musculus with 13 samples.

Results

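Sertoli cells grown from adult testis were compared with Sertoli cells grown from testis shortly before birth. The mature cultures came from 8 week mice and had been in culture for 7 days, and the immature cultures came from 19 dpc (days post coitum) embryos and had been in culture for 3 days. Each is represented by 2 arrays, out of 13 arrays in the series. Both were wild type cells with no transgene, kept in DME medium with 10% serum. Age and days in culture changed together, so their contributions cannot be told apart. The other arrays held wild type mouse embryonic fibroblasts (MEF) carrying an empty vector and tail tip fibroblasts (TTF) carrying tdTomato, both after 3 passages with 10% serum, fibroblasts of both kinds turned towards Sertoli cells by transgenes for Nr5a1, Wt1, Dmrt1, Gata4 and Sox9, and wild type male gonad at 14.5 dpc. The transgenic cells are called induced cells below. They served to estimate the spread between replicate arrays, and MEF and TTF also gave a second contrast between cultures of different origin. A feature (array spot) with a gene name was kept when its signal lay above the array median on at least 2 of the 4 Sertoli arrays. That left 23122 of 62976 features and, with each gene read by its brightest feature, 15387 of 20738 genes.

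Sertoli cells are the supporting cells of the seminiferous tubule. In the fetus they direct testis formation and secrete anti-Müllerian hormone, and they divide. Around puberty they stop dividing, seal the tubule with tight junctions, turn glucose into lactate for the germ cells and engulf the residual bodies that spermatids shed. The comparison addresses how the 2 stages differ once the cells have been placed in culture.

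All values below are the authors' log2 signals, on which a difference of 1 is a 2-fold change, and every array had a median of 7.488. Differences are mature minus immature, with the standard error of a limma fit over all 13 arrays, and a gene was called at a Benjamini-Hochberg adjusted p under 0.05. Signal near the array median is dim, and folds of dim genes rest on an unknown background. The 2 mature arrays lay 0.128 apart (root mean square over tested genes) and the 2 immature arrays 0.281, while arrays of the different stages lay 1.227 to 1.247 apart. Immature replicate 2 had a dim patch on the array surface. Of 1312 grid blocks, 30 differed between the immature arrays by over 0.3, and 348 tested genes were read there. Inside them immature replicate 2 lay -0.976 from the mean of the other 11 arrays, against 0.060 outside. Any gene given below that was read in the patch is marked as such. Whether replicates came from separate animals or cultures is not given, so the p-values reflect the spread of these particular arrays, and that spread may be technical. It is pooled over all 7 groups. A standard error can thus be wide where the Sertoli replicates lie close, as for Gata1, Cst9 and Lin28b below.

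Most genes differed between the stages. Of 15387 genes, 11069 (71.9%) were called, 4715 of them higher in mature cultures (30.6%) and 6354 lower (41.3%). With so large a share called, a call alone says little, and size is given beside it throughout. Counts within a gene list are to be read against those shares over all tested genes. A difference of 1 or more was reached by 1949 genes higher in the mature cultures (12.7%) and by 1472 lower (9.57%). The largest differences were mostly rises, with 111 genes higher by 5 or more and 12 lower. Among the genes that lay above the median on all 4 arrays, 27.7% were higher and 41.9% lower, which leaves aside the 951 genes kept only through the mature arrays and the 713 kept only through the immature arrays. On both mature arrays, 514 genes lay above the median that did so on none of the other 11 arrays, against 86 for the immature arrays. For bulk RNA, fewer cells of a type and less RNA per cell cannot be told apart.

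**Figure D1:**
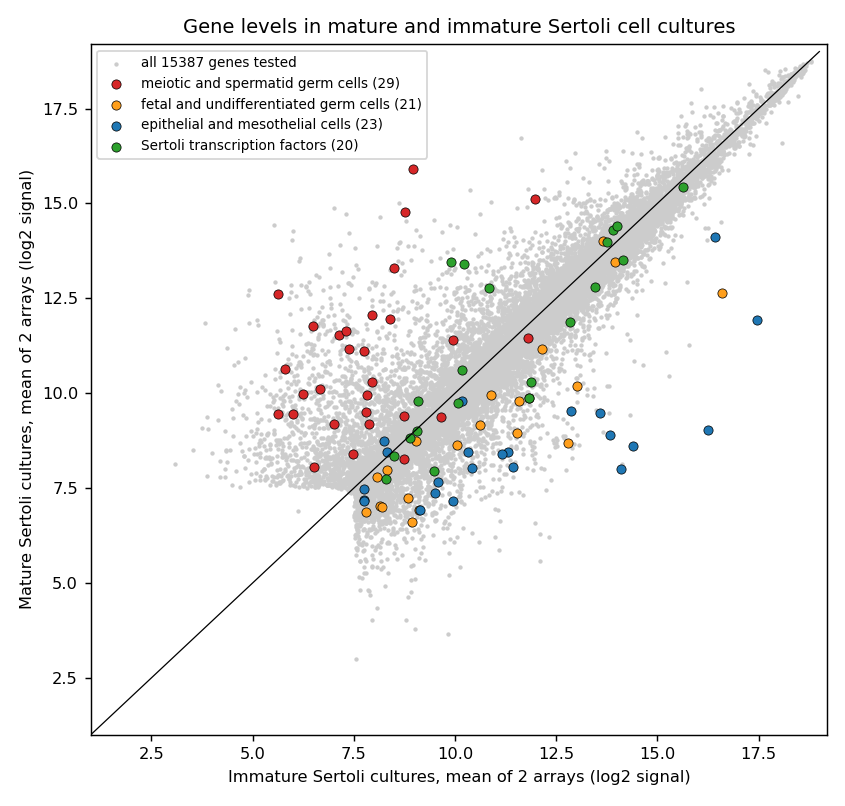
Mean log2 signal on the 2 mature arrays (vertical axis) against the 2 immature arrays (horizontal axis), with 1 point per tested gene and the line of equality. Meiotic and spermatid germ cell genes lie mainly above the line, epithelial and fetal germ cell genes mainly below it, and most Sertoli transcription factors close to it. The empty lower left corner is made by the filter.

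Levels of 12 Sertoli cell markers were read in both cultures, all of which passed the filter. All 12 lay above the array median on both immature arrays and 11 on both mature arrays, against 9 in MEF and 7 in TTF. The filter used the Sertoli arrays and not the fibroblast arrays. On all 4 Sertoli arrays, 13440 of the 15387 tested genes lay above the median, so these counts do not check the label. The marker below the median in mature cultures was Amh. Wt1, a zinc finger factor required to keep Sertoli identity, read 15.61 and 15.67 on the immature arrays and 15.36 and 15.49 on the mature arrays. Its difference of -0.22 ± 0.06 (limma adjusted p = 0.0145) passed the test, but not without mature replicate 1 (-0.15, adjusted p = 0.112) or immature replicate 2 (-0.19, adjusted p = 0.0696). Clu, which encodes the abundant secreted protein clusterin, read 18.29 on both immature arrays and 18.40 on both mature arrays and was not called (0.11 ± 0.09, adjusted p = 0.273). Cldn11, the claudin of the Sertoli tight junction, read 15.43 and 15.50 against 15.59 and 15.63. That difference of 0.14 ± 0.06 (adjusted p = 0.0461) was lost without immature replicate 1 (0.10, adjusted p = 0.182), mature replicate 1 (0.16, adjusted p = 0.0872) or mature replicate 2 (0.12, adjusted p = 0.177). Wt1, Clu and Cldn11 thus lay within 0.22 between the stages, and Cldn11 lay at 6.90 to 7.30 in the fibroblasts. Other markers of the 12 moved far more, among them Rhox5 (3.21), Inha (-2.81), Amh (-1.71) and Dmrt1 (-1.59), so the set was not held at 1 level.

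The other transcription factors of Sertoli fate moved in both directions. Of 20 tested, 7 were higher, 8 lower and 5 not called, with a median difference of -0.12 beside -0.09 over all tested genes. Both shares lay near those over all tested genes (30.6% higher and 41.3% lower), so the counts do not set this list apart. Sox9, which starts Sertoli differentiation downstream of Sry, read 13.56 and 13.38 on the immature arrays and 12.84 and 12.74 on the mature arrays (-0.68 ± 0.07, adjusted p = 2.81e-05). Gata4, a partner of Wt1 and Nr5a1 in the gonad, read 14.04 and 14.28 against 13.44 and 13.59 (-0.65 ± 0.14, adjusted p = 0.00332). Dmrt1, a male sex determination factor also found in germ cells, read 11.96 and 11.79 against 10.36 and 10.22 (-1.59 ± 0.08, adjusted p = 1.95e-07). In each of these the arrays of the stages did not overlap, as for 86.0% of all tested genes. Nr5a1, the steroidogenic factor 1 gene, went the other way, from 13.77 and 14.02 to 14.26 and 14.33 (0.40 ± 0.08, adjusted p = 0.0025). Sox8, a relative of Sox9, read 8.53 and 8.47 against 8.29 and 8.39 and was not called (-0.16 ± 0.09, adjusted p = 0.126), though it passed after quantile normalization of the tested genes (-0.32, adjusted p = 0.0033).

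Gata1, Rhox5 and Tcf21 rose most among these factors. Gata1, which in the mouse testis marks postnatal Sertoli cells, read 9.81 and 9.99 in immature and 13.40 and 13.52 in mature cultures (3.56 ± 0.63, adjusted p = 0.000889). Rhox5, an androgen-dependent homeobox gene of Sertoli cells on the X chromosome, read 10.15 and 10.26 against 13.37 and 13.46 (3.21 ± 0.09, adjusted p = 7.05e-09). Tcf21, a helix-loop-helix factor of gonad mesenchyme and Sertoli cells, read 10.78 and 10.88 against 12.73 and 12.79 (1.93 ± 0.08, adjusted p = 9.21e-08). Zbtb16, known as a factor of undifferentiated spermatogonia, was the factor that fell most, from 11.81 and 11.84 to 9.85 and 9.89 (-1.96 ± 0.07, adjusted p = 2.49e-08). Hey1, a target of Notch signalling, fell from 9.41 and 9.56 to 7.92 and 7.97 (-1.54 ± 0.07, adjusted p = 9.83e-08).

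**Figure D2:**
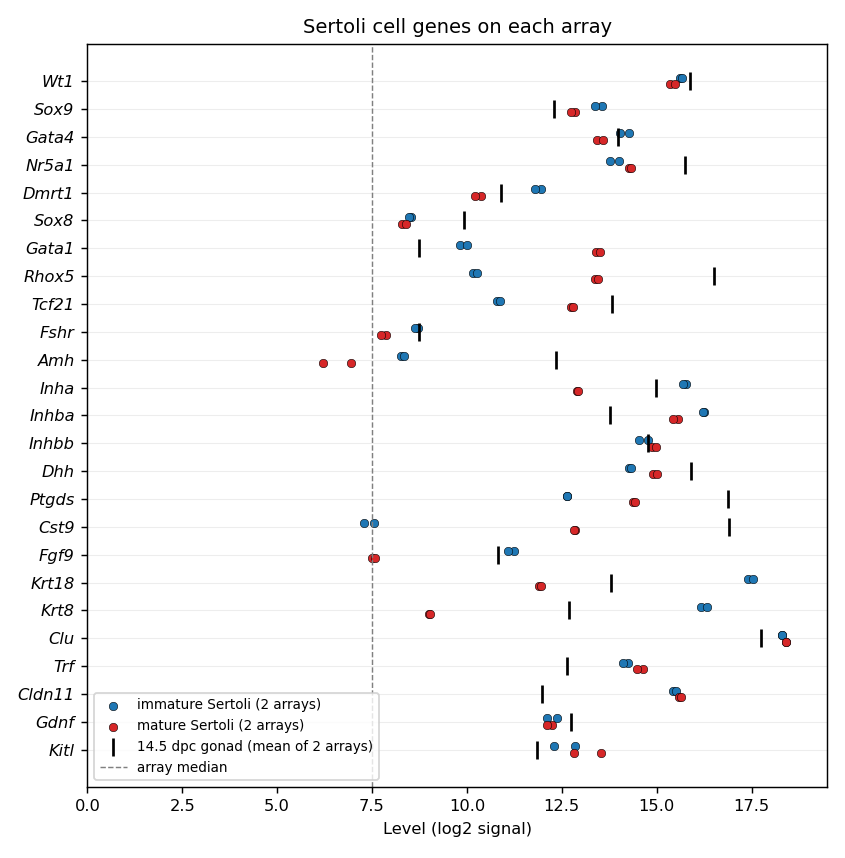
Level (log2 signal, horizontal axis) of Sertoli cell genes on each of the 2 immature and 2 mature arrays, with a tick for the mean of the 2 gonad arrays and a dashed line at the array median of 7.488. Wt1, Clu and Cldn11 sit at nearly the same level in both cultures, Krt8, Krt18, Fgf9 and Inha lie far lower in mature cultures, and Gata1, Rhox5 and Cst9 far higher. Levels are read within a gene, since features differ in brightness.

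Secreted products and structural genes of the fetal Sertoli cell were mostly lower in the mature cultures. Of 26 tested, 17 fell and 7 rose, with a median of -1.13, and among the 21 above the median on all 4 arrays the counts were 14 and 5. Amh, whose product makes the Müllerian ducts regress, read 8.26 and 8.34 in immature cultures and 6.95 and 6.22 in mature cultures (-1.71 ± 0.19, adjusted p = 4.61e-05). Both mature values are under the array median, and even the immature cultures lay well below the uncultured 14.5 dpc gonad, at 12.33 and 12.36. Inha, the alpha subunit shared by the inhibins, fell from 15.76 and 15.69 to 12.90 and 12.93 (-2.81 ± 0.06, 7.02-fold lower, adjusted p = 2.31e-09). The beta subunits changed far less. Inhba, which also makes activin A, read 16.26 and 16.22 against 15.55 and 15.42 (-0.75 ± 0.06, adjusted p = 5.94e-06). Inhbb read 14.53 and 14.78 against 14.88 and 14.97 (0.27 ± 0.08, adjusted p = 0.0142), a call lost without immature replicate 1 (0.14, adjusted p = 0.0747) or mature replicate 2 (0.22, adjusted p = 0.0871). Fst, the activin-binding protein follistatin, fell with Inha, from 14.06 and 13.88 to 12.61 and 12.37 (-1.48 ± 0.12, adjusted p = 5.00e-06), as did the activin receptor Acvr2b, from 12.95 and 12.99 to 10.91 and 10.91 (-2.06 ± 0.11, adjusted p = 3.86e-07).

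Fgf9, a growth factor that maintains Sox9 in the fetal testis, read 11.24 and 11.07 in immature and 7.49 and 7.59 in mature cultures (-3.61 ± 0.08, 12.2-fold lower, adjusted p = 2.58e-09), which puts the mature cultures at the array median. Hsd17b3, an androgen-forming enzyme of fetal Sertoli and adult Leydig cells, read 9.32 and 9.27 against 6.32 and 6.65 (-2.81 ± 0.16, adjusted p = 6.97e-07). Dhh, the hedgehog ligand that Sertoli cells send to Leydig and peritubular cells, was among the rises, from 14.27 and 14.32 to 14.91 and 15.01 (0.67 ± 0.06, adjusted p = 1.85e-05). Ptgds, the prostaglandin D synthase, rose from 12.65 on both immature arrays to 14.38 and 14.43 (1.75 ± 0.06, adjusted p = 3.02e-08). Cst9, a cystatin of the fetal testis, was the member that rose most, from 7.55 and 7.29 to 12.86 and 12.83 (5.43 ± 0.61, adjusted p = 4.97e-05). In the gonad Cst9 read 16.98 and 16.85, so the immature cultures, not the mature ones, lay farther from the fetal tissue for this gene.

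Products of the adult Sertoli cell went up more often than down. Of 28 tested, 16 rose and 5 fell, with a median of 0.47. Espn, which bundles actin at the ectoplasmic specialization where Sertoli cells hold spermatids, read 9.39 and 9.40 in immature and 11.83 and 11.76 in mature cultures (2.40 ± 0.08, adjusted p = 2.50e-08). Trf, the iron carrier transferrin, read 14.24 and 14.12 against 14.63 and 14.48 (0.38 ± 0.08, adjusted p = 0.00218), so the classical adult product moved little. Ldhc and Galntl5 were the members of this list that rose most, by 6.93 and 3.89, and both are known as genes of spermatogenic cells. Fshr, which encodes the receptor for FSH (follicle-stimulating hormone), was dim in each culture, at 8.70 and 8.64 against 7.86 and 7.74, and was not called (-0.87 ± 0.52, adjusted p = 0.162). It passed after quantile normalization (-1.32, adjusted p = 0.0487) and when the 4 Sertoli arrays were fitted alone (-0.87, adjusted p = 0.000192). Thra, the thyroid hormone receptor through which the hormone ends Sertoli proliferation in rodents, fell from 13.81 and 13.50 to 12.92 and 12.94 (-0.72 ± 0.09, adjusted p = 9.76e-05). Dio3, which inactivates thyroid hormone, rose from 7.77 and 7.75 to 9.53 and 9.48 (1.75 ± 0.07, adjusted p = 9.75e-08).

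Keratins were among the most strongly reduced genes of the mature cultures. Krt8 read 16.18 and 16.33 in immature and 9.01 and 9.03 in mature cultures, the largest fall among the named genes (-7.24 ± 0.09, 151-fold, adjusted p = 2.79e-10). Its filament partner Krt18, a known marker of immature Sertoli cells, read 17.40 and 17.55 against 11.90 and 11.94 (-5.55 ± 0.08, adjusted p = 3.17e-10). Krt19 fell from 14.38 and 14.40 to 8.52 and 8.69 (-5.79 ± 0.07, adjusted p = 1.98e-10), and Krt17 from 12.26 and 12.40 to 6.31 and 6.13 (-6.11 ± 0.32, adjusted p = 3.83e-07). Vim, the intermediate filament that Sertoli cells keep for life, stood at 17.25 and 17.26 in immature and 17.59 and 17.60 in mature cultures (0.34 ± 0.07, adjusted p = 0.00284). Krt8 and Krt18 in the gonad read 12.70 and 12.68 and 13.78 and 13.81, between the 2 cultures.

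Other genes of epithelia fell along with the keratins. Of 23 epithelial and mesothelial markers tested, 20 fell and 1 rose, with a median of -2.41, and of the 17 above the median on all 4 arrays 15 fell and 1 rose. Their summed level was 18.67 and 18.81 on the immature arrays, 14.83 and 14.85 on the mature arrays, 15.38 on both gonad arrays and 18.58 to 18.98 on the induced arrays. Krt8 and Krt19 belong to this list and to that of fetal Sertoli products. Wfdc2, a secreted protease inhibitor of epididymal and other epithelia, read 14.08 and 14.14 against 8.12 and 7.91 (-6.10 ± 0.17, adjusted p = 7.19e-09), with the gonad at 9.63 and 9.74. Cdh16, the cadherin of kidney tubules, read 12.10 and 12.11 against 5.96 and 6.61 (-5.82 ± 0.20, adjusted p = 3.02e-08). Muc16, a mucin of mesothelium, was the exception, at 8.25 and 8.23 against 8.66 and 8.82 (0.50 ± 0.09, adjusted p = 0.00106). The keratin values thus sit beside markers of other epithelia that move the same way, and the part of such cells in the keratin result was not tested.

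Most junction genes fell, and the 3 largest falls were of claudins. Of 38 tested, 28 were lower and 7 higher, with a median of -0.65, but 3 were kept only through the immature arrays. Of the 33 above the median on all 4 arrays, 23 were lower and 7 higher, with a median of -0.53. Cldn3, a claudin controlled by androgen in the adult tubule, read 12.98 and 12.91 in immature and 8.64 and 8.68 in mature cultures (-4.28 ± 0.05, adjusted p = 2.60e-10). Cldn7, a claudin of simple epithelia, read 13.52 and 13.66 against 9.46 and 9.49 (-4.12 ± 0.08, adjusted p = 1.08e-09). Cldn1 read 8.96 and 8.87 against 5.54 and 3.98 (-4.15 ± 0.46, adjusted p = 4.42e-05), below the median in mature cultures. Among the members that rose besides Espn were Lamc3, a laminin chain that is part of the junction between Sertoli cells and spermatids (from 9.75 and 9.85 to 10.97 and 11, 1.19 ± 0.09, adjusted p = 3.36e-06), and Jam2, an adhesion molecule of the barrier (from 15.24 and 15.13 to 16.17 and 16.14, 0.97 ± 0.07, adjusted p = 2.43e-06). The 3 features for Jam2 differed by 0.17 to 0.97. Cldn3 and Cldn7 thus parted from Cldn11, which the cultures held at nearly 1 level.

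**Figure D3:**
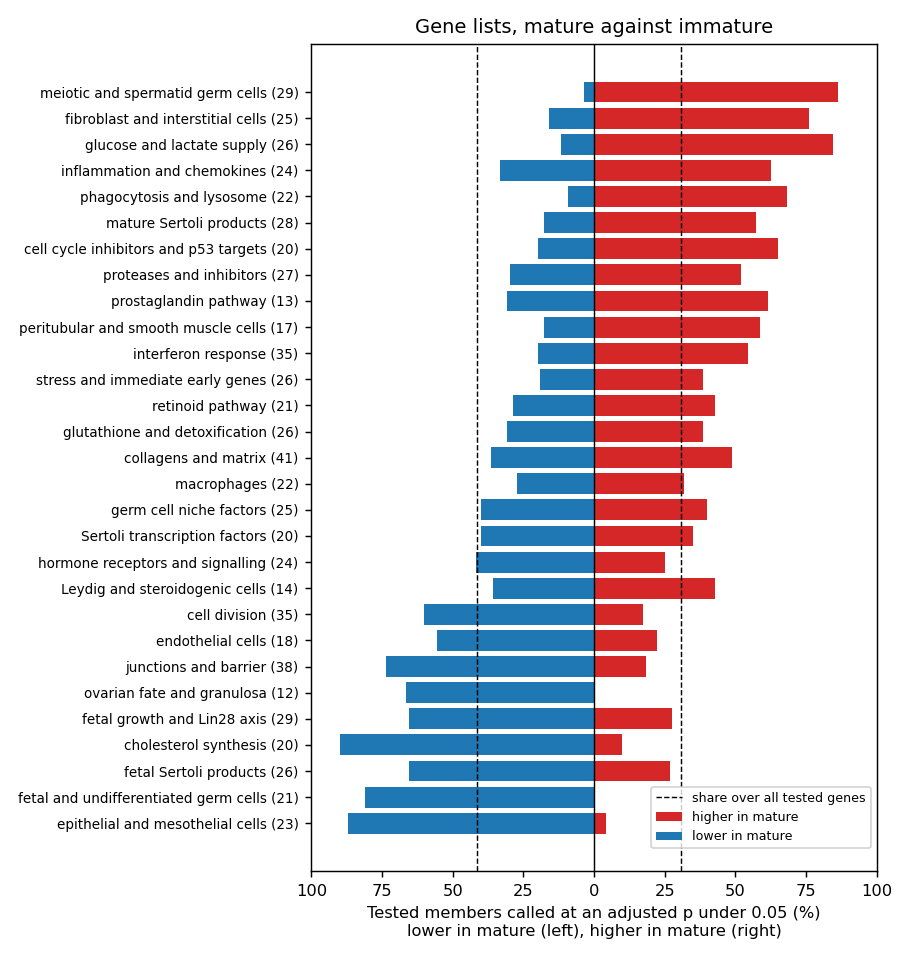
Share of the tested members of each gene list that were called lower (left) or higher (right) in mature cultures, in percent, with the number tested in brackets and dashed lines at the shares over all tested genes (41.3% lower, 30.6% higher). Meiotic and spermatid genes and glucose and lactate genes lie far to the right, and epithelial, fetal germ cell and cholesterol genes far to the left. Lists are ordered by their median difference.

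Transcripts of germ cells differed widely between the cultures. Of 29 genes of meiotic cells and spermatids tested, 25 were higher in mature cultures and 1 lower, with a median of 3.46. Since 12 of them were kept only through the mature arrays, the 16 above the median on all 4 arrays are the fairer count, and of these 12 were higher and 1 lower, with a median of 2.25. The summed level of all 30 measured members was 13.87 and 13.82 on the immature arrays, 17.49 and 17.44 on the mature arrays, 14.39 and 14.34 in the gonad and 12.80 to 13.24 in the fibroblasts. Ldhc, the lactate dehydrogenase of spermatocytes and sperm, read 9.0 and 8.94 in immature and 15.96 and 15.84 in mature cultures (6.93 ± 0.24, adjusted p = 2.96e-08). Smcp, a protein of the sperm mitochondrial capsule, read 5.33 and 5.91 against 12.62 and 12.58 (6.98 ± 0.49, adjusted p = 2.52e-06). Meig1, needed to build the sperm tail, read 8.70 and 8.84 against 14.71 and 14.85 (6.01 ± 0.19, adjusted p = 1.48e-08). Sycp3, a protein of the synaptonemal complex, was the only member called lower, at 11.95 and 11.67 against 11.53 and 11.38 (-0.36 ± 0.10, adjusted p = 0.0131), a call lost without immature replicate 1 (-0.22, adjusted p = 0.0877) or mature replicate 2 (-0.28, adjusted p = 0.0893).

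Genes of fetal germ cells and spermatogonia had the opposite pattern. Of 21 tested, 17 were lower in mature cultures and 0 higher by limma (0 at an unadjusted p under 0.05), with a median of -1.41. For those above the median on all 4 arrays, 15 in number, 11 were lower. Dppa3, Nanos2 and Sox2 did not pass the filter. On the immature arrays they read 6.15 and 5.98, 7.38 and 7.34, and 6.72 and 6.74. In the gonad they read 15.49 and 15.53, 13.68 and 13.80, and 10.97 and 10.84. When the 4 Sertoli arrays were fitted alone, 1 member passed as higher. Stra8, which germ cells turn on under retinoic acid before meiosis, read 16.71 and 16.49 in immature and 12.72 and 12.57 in mature cultures (-3.95 ± 0.24, adjusted p = 9.33e-07). The gonad, at 10.52 and 10.39, was lower for Stra8 than either culture. Kit, the receptor of differentiating spermatogonia and primordial germ cells, read 12.84 and 12.73 against 8.76 and 8.64 (-4.09 ± 0.12, adjusted p = 9.49e-09). Dazl, an RNA-binding protein of germ cells, read 13.02 and 13.03 against 10.13 and 10.23 (-2.85 ± 0.30, adjusted p = 3.74e-05). Kitl, the Kit ligand made by Sertoli cells, overlapped between the stages, at 12.86 and 12.29 against 13.54 and 12.83 (0.61 ± 0.37, adjusted p = 0.166). Gdnf, the Sertoli factor that keeps spermatogonial stem cells, read 12.37 and 12.11 against 12.23 and 12.12 (-0.06 ± 0.10, adjusted p = 0.561). The part of germ cells in the other differences was not tested.

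**Figure D4:**
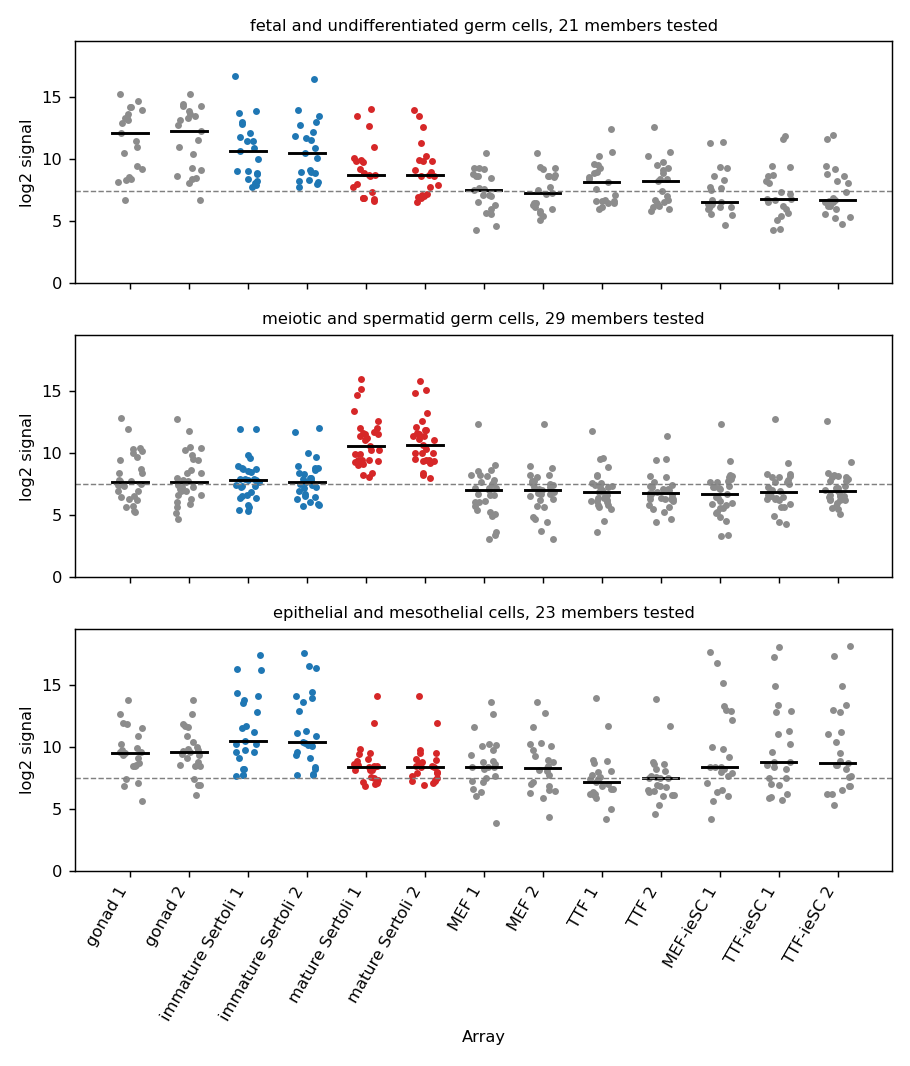
Log2 signal of each tested member (points) and their median (bar) on each of the 13 arrays for 3 cell type lists, with the array median dashed, immature arrays in blue and mature arrays in red. Over all 24 fetal germ cell genes measured, the median was 12.50 in gonad, 9.57 in immature and 8.67 in mature cultures. Meiotic and spermatid genes stand out on the mature arrays alone, and epithelial genes are high on the immature and induced arrays and low on the mature arrays. Members kept through 1 stage only are included, so the panels describe and do not test.

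The 12 named genes with the largest rises were led by Clec2m, a C-type lectin gene. It read 5.74 and 5.30 in immature and 14.48 and 14.36 in mature cultures (8.90 ± 0.40, adjusted p = 1.38e-07), and 3.44 to 6.45 in the gonad and fibroblasts. Fbp1, the gluconeogenic fructose bisphosphatase, read 5.61 and 6.34 against 14.05 and 14.01 (8.05 ± 0.20, adjusted p = 4.85e-09), with the gonad at 11.44 and 11.54. Hils1, a histone of spermatids, read 5.30 and 4.46 against 12.54 and 12.64 (7.71 ± 0.24, adjusted p = 1.78e-08). Adam3, a sperm surface protein needed for fertilization in mice, rose by 7.33 ± 0.38, but its 2 features gave 3.73 and 7.33. Plaat5, a phospholipid-modifying enzyme, rose by 8.27 ± 0.51, with features at 3.90 and 8.27. Slc6a21, Pabpc2, Allc, Smcp, Spaca3, Ldhc and Stpg4 complete the group, at 6.91 to 7.81. All 12 lay below the array median on both immature arrays except Ldhc, so the sizes are those of genes near background in the immature cultures.

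Falls of that size were fewer. After Krt8 came Trim12a, a member of the antiviral TRIM5 family, at 11.98 and 12.21 in immature and 5.79 and 5.37 in mature cultures (-6.51 ± 0.32, adjusted p = 2.37e-07), where its 2 features gave -6.51 and -3.89. Bcan, the proteoglycan brevican, read 14.07 and 14.16 against 8.02 and 8.24 (-5.99 ± 0.14, adjusted p = 3.02e-09). Crisp3, a cysteine-rich secretory protein, read 9.74 and 9.90 against 3.57 and 3.73 (-6.17 ± 0.31, adjusted p = 3.08e-07). S100a9, a neutrophil protein, read 11.19 and 10.96 against 5.70 and 6.04 (-5.21 ± 0.13, adjusted p = 5.32e-09), and Reg3b, an antibacterial lectin, 11.95 and 11.99 against 6.68 and 6.49 (-5.38 ± 0.38, adjusted p = 2.45e-06). The mast cell tryptase Tpsab1 fell by 5.23 on the log2 scale from an immature level near 9, with 8.98 and 9.04 against 4.16 and 3.40.

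Genes of glucose use and lactate supply rose nearly as a set. Of 26 tested, all above the median on the 4 arrays, 22 rose, 3 fell and 1 was not called, with a median of 0.62. Slc16a3, a carrier that exports lactate, read 13.81 and 13.63 in immature and 16.24 and 16.16 in mature cultures (2.49 ± 0.08, adjusted p = 2.44e-08). Slc2a3, the glucose transporter GLUT3, read 10.99 and 11.28 against 13.01 and 13.14 (1.94 ± 0.10, adjusted p = 4.31e-07). Pfkp, a phosphofructokinase subunit, rose from 10.06 and 9.98 to 11.88 and 11.91 (1.87 ± 0.06, adjusted p = 2.24e-08), although its other feature gave only 0.09. The falls were Aldoc, the brain aldolase (from 13.25 and 13.01 to 11.53 and 11.29, -1.72 ± 0.11, adjusted p = 1.19e-06), Slc2a4, the insulin-responsive transporter GLUT4 (from 10.86 and 10.69 to 9.72 and 9.70, -1.07 ± 0.09, adjusted p = 7.37e-06), and Hk2, a hexokinase (from 14.94 and 14.78 to 14.27 and 14.30, -0.58 ± 0.08, adjusted p = 0.000196). Each pair of groups was separate on the arrays. In TTF against MEF, 17 of the 26 were higher and 4 lower, with a median of 0.29.

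Genes of cholesterol synthesis mostly fell. All 20 tested members lay above the median on the 4 arrays, and 18 fell and 2 rose, with a median of -1.02. Dhcr7, which makes the last step to cholesterol, read 11.58 and 11.68 in immature and 9.95 and 10.02 in mature cultures (-1.64 ± 0.07, adjusted p = 7.27e-08). Idi1, an isomerase of isoprenoid units, read 13.99 and 13.95 against 12.53 and 12.52 (-1.45 ± 0.07, adjusted p = 1.98e-07). Cyp51, the lanosterol demethylase, read 11.50 and 11.31 against 10.07 and 9.95 (-1.39 ± 0.08, adjusted p = 8.83e-07). Sc5d, the sterol C5 desaturase, was the larger of the rises, from 12.27 and 12.45 to 13.79 and 13.89 (1.48 ± 0.08, adjusted p = 5.21e-07). Ebp, which acts in the same late stretch of the pathway, rose from 15.17 and 15.09 to 15.58 and 15.60 (0.47 ± 0.05, adjusted p = 2.87e-05). Scarb1, the lipoprotein receptor through which Sertoli cells take up cholesterol and bind dying germ cells, fell from 13.69 and 13.74 to 12.63 and 12.67 (-1.07 ± 0.07, adjusted p = 1.48e-06). In TTF against MEF, which involves none of these arrays, 14 of the 20 were lower and 2 higher, where 37.1% of all tested genes were lower and 31.5% higher.

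Promoter sequences are shown for 3 of these genes because the list moved together. They are RefSeq windows of GRCm38.p6, 250 bases before to 50 after the annotated start, written 5′ to 3′ on the gene's strand. Capitals mark the CCAAT box, the core bound by the trimeric factor NF-Y, found on either strand (ATTGG is its reverse), and TCACNCCAC, a sterol regulatory element. Idi1 and Cyp51 are members with large falls, and Hmgcs1, the synthase at the start of the pathway (-0.87 ± 0.07, adjusted p = 4.66e-06), was chosen after its sequence was seen, as the member that held the sterol element.
Hmgcs1, chr13:119690101-119690400, strand +: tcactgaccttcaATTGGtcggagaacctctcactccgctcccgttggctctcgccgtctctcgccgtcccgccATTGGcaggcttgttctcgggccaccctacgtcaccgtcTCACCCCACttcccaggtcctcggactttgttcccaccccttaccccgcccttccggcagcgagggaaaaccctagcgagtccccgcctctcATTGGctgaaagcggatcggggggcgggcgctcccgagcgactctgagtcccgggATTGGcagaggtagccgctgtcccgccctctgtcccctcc
Idi1, chr13:8885356-8885655, strand +: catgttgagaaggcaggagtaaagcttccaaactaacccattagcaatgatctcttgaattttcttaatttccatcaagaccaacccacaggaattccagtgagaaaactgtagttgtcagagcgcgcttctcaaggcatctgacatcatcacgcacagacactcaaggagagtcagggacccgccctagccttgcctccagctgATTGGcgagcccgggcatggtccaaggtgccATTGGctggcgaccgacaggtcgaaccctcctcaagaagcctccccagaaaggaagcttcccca
Cyp51, chr5:4104648-4104947, strand -: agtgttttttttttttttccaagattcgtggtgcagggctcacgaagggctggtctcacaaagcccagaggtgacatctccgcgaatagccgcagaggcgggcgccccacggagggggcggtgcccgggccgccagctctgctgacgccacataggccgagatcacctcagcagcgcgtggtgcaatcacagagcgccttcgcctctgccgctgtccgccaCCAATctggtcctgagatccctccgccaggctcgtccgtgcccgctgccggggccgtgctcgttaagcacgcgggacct
The windows held 4, 2 and 1 CCAAT boxes, and in Hmgcs1 these shared 0 bases with the sterol element. Of the tested cholesterol genes, 16 had a promoter in the table, and all 16 held a CCAAT box in at least 1 window, against 42.4% of 12225 tested genes and 41.1% of all 27025 genes with a promoter. Some genes have several annotated starts, each with its own window, as 2 of the 16 do. With the box required in every window, 14 of 16 held it, against 34.2% of the tested genes. Dhcr7, the member that fell most, has 3 windows, and 2 of them hold no CCAAT box. Both members that rose are among the 16, so the box did not separate them from the 14 that fell. TCACNCCAC was found in 1 of 16, against 1.44% of all genes. A match describes these letters in this window only.

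**Figure D5:**
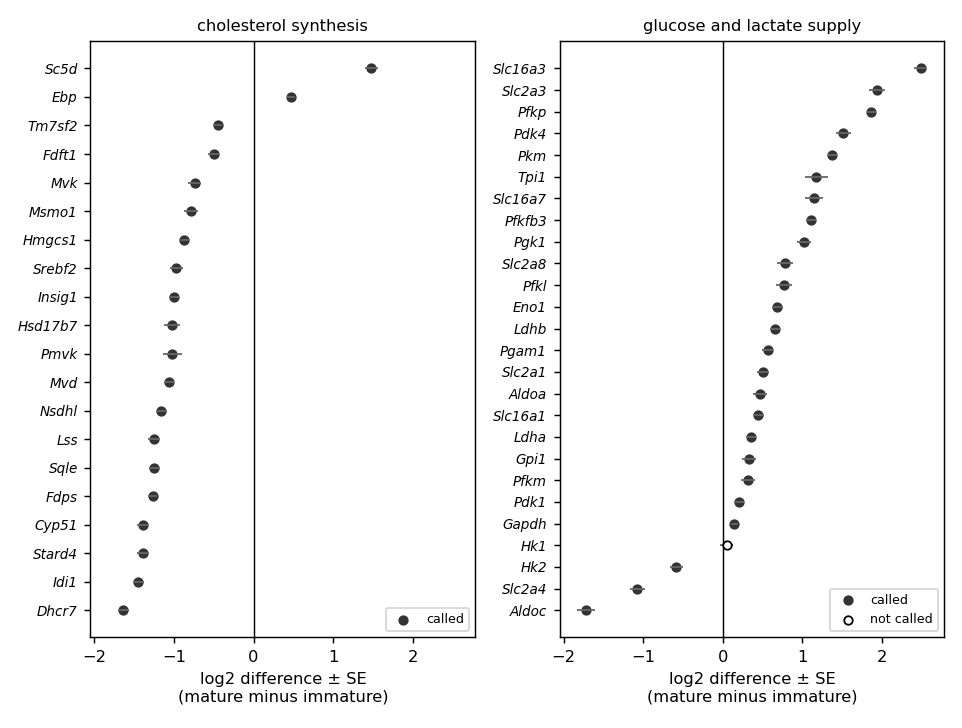
Log2 difference (mature minus immature, with standard error) of every tested member of the cholesterol synthesis list (left) and the glucose and lactate list (right), filled where called. Cholesterol genes lie to the left of 0 except Sc5d and Ebp, and glucose and lactate genes to the right except Hk2, Slc2a4 and Aldoc, with Hk1 not called.

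Clearance genes rose along with lactate supply. Of 22 genes of phagocytosis and the lysosome, 15 rose and 2 fell, with a median of 0.49. The rise was not particular to the Sertoli cultures. In TTF against MEF, 13 of the 22 were higher and 6 lower, with a median of 0.71. Gas6, the bridge that lets Sertoli cells recognise dying cells through TAM receptors, read 15.68 and 15.48 in immature and 17.33 and 17.26 in mature cultures (1.72 ± 0.12, adjusted p = 2.49e-06). Gpnmb, a glycoprotein of phagosomes, read 9.95 and 9.83 against 11.79 and 11.70 (1.86 ± 0.07, adjusted p = 3.99e-08). Psap, the precursor of lysosomal saposins, rose from 14.46 and 14.63 to 15.94 and 15.98 (1.41 ± 0.08, adjusted p = 4.75e-07). Lamp2, a lysosomal membrane protein, has features of opposite sign (-0.29 and 0.54), so its direction is not settled.

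Retinoid genes moved in both directions. Of 21 tested, 9 rose (42.9%) and 6 fell (28.6%), against 30.6% and 41.3% over all tested genes. Aldh1a2, which makes retinoic acid, read 13.01 and 13.21 in immature and 14.88 and 14.98 in mature cultures (1.82 ± 0.09, adjusted p = 3.49e-07). Cyp26b1, which degrades it and shields fetal germ cells from meiosis, rose as well, from 10.63 and 10.84 to 12.59 and 12.64 (1.88 ± 0.08, adjusted p = 7.48e-08), yet stayed below the gonad at 15.83 and 15.78. Dhrs3, which reduces retinal back to retinol, rose from 14.51 and 14.66 to 16.24 and 16.34 (1.70 ± 0.08, adjusted p = 1.63e-07). The retinol importer Stra6 fell from 12.51 and 12.66 to 10.25 and 10.31 (-2.30 ± 0.08, adjusted p = 2.28e-08). Rdh10, which oxidises retinol to retinal, fell from 12.03 and 12.17 to 9.63 and 9.73 (-2.42 ± 0.08, adjusted p = 2.34e-08). Crabp1, a binding protein for retinoic acid, fell from 11.37 and 11.33 to 8.29 and 8.19 (-3.12 ± 0.16, adjusted p = 3.14e-07). Of the receptors, Rarg rose by 1.66 ± 0.11 (adjusted p = 1.90e-06) and Rarb by 1.12 ± 0.08 (adjusted p = 2.79e-06).

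Cell division genes were lower in mature cultures, by modest amounts. Of 35 tested, 21 fell and 6 rose, with a median of -0.39. Mki67, a nuclear protein of cycling cells, read 15.20 and 15.25 in immature and 14.72 and 14.70 in mature cultures (-0.51 ± 0.04, adjusted p = 9.73e-06). Mcm2, part of the replication helicase, fell from 13.47 and 13.59 to 12.31 and 12.42 (-1.17 ± 0.09, adjusted p = 6.25e-06), and Mcm5 fell by 1.01. Aurka, a mitotic kinase, read 13.75 and 13.87 against 14.13 and 14.18 (0.35 ± 0.10, adjusted p = 0.0155), but lost the call without immature replicate 1 (0.29, adjusted p = 0.0818) or mature replicate 2 (0.32, adjusted p = 0.0711). Ccne1, the cyclin of entry into S phase, rose from 12.75 and 12.94 to 13.36 and 13.38 (0.52 ± 0.07, adjusted p = 0.000143). The Mki67 signal thus stayed far above the array median in the 8 week cultures. Features differ in brightness, and which cells carried the transcript was not tested. Inhibitors and p53 targets rose in 13 of 20 and fell in 4, with a median of 0.41. Cdkn1b, the inhibitor p27 that limits Sertoli cell number in mice, read 11.64 and 11.75 against 12.19 and 12.29 (0.55 ± 0.13, adjusted p = 0.00411), and Cdkn1a, the p53 target p21, 13.77 and 13.65 against 14.34 and 14.24 (0.58 ± 0.07, adjusted p = 0.00012). Cdkn1c, the imprinted inhibitor p57, fell from 11.39 and 11.42 to 10.09 and 10.08 (-1.32 ± 0.11, adjusted p = 5.66e-06).

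Genes of fetal growth fell widely. Of 29 imprinted, Lin28 axis and related genes, 19 fell and 8 rose, with a median of -0.82. The fall was not particular to the Sertoli cultures. In TTF against MEF, 21 of the 29 were lower and 4 higher, with a median of -1.22. H19, an imprinted noncoding RNA on chromosome 7, read 15.17 and 15.38 in immature and 10.36 and 10.55 in mature cultures (-4.82 ± 0.09, 28.3-fold lower, adjusted p = 1.08e-09). Its neighbour Igf2, the fetal growth factor, fell from 8.88 and 8.79 to 6.85 on both mature arrays (-1.99 ± 0.17, adjusted p = 7.55e-06), under the median. Dlk1, an imprinted ligand of immature cells on chromosome 12, fell from 15.72 and 15.81 to 11.25 and 11.29 (-4.49 ± 0.06, adjusted p = 3.46e-10). Lin28b, which blocks let-7 maturation, read 11.42 and 11.53 against 8.24 and 8.14 (-3.29 ± 0.71, adjusted p = 0.00271), with -1.46 from its other feature. Igf2bp3, a fetal RNA-binding protein, read 11.37 and 11.53 against 9.0 and 9.15 (-2.38 ± 0.10, adjusted p = 7.62e-08). Dcn, the proteoglycan decorin, rose instead, from 13.58 and 13.53 to 16.05 on both mature arrays (2.49 ± 0.06, adjusted p = 2.63e-09). Igf1, the postnatal growth factor, rose from 11.15 and 11.17 to 12.95 on both mature arrays (1.79 ± 0.06, adjusted p = 1.60e-08), while its receptor gene Igf1r fell from 13.18 and 13.41 to 11.73 and 11.79 (-1.54 ± 0.11, adjusted p = 2.74e-06). The 10 features for Igf1 ranged from 0.31 to 2.02, all upward.

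Matrix, inflammation and antigen presentation changed by member. Of 41 collagens and matrix genes, 20 rose and 15 fell, with a median of 0.09. Thbs2, an antiangiogenic thrombospondin, rose from 11.22 on both immature arrays to 14.25 and 14.23 (3.02 ± 0.05, adjusted p = 6.56e-10). Spp1, the secreted phosphoprotein osteopontin, rose from 12.26 and 12.32 to 15.06 and 15.14 (2.81 ± 0.07, adjusted p = 5.76e-09). Col18a1, a collagen of basement membranes, fell from 15.15 and 15.27 to 11.05 and 11.11 (-4.13 ± 0.06, adjusted p = 4.31e-10). Saa3, an acute phase protein, rose from 11.66 and 11.94 to 15.26 and 15.53 (3.59 ± 0.17, adjusted p = 1.85e-07), and Cxcl5, a neutrophil chemokine, fell from 12.18 and 12.38 to 8.93 and 8.97 (-3.33 ± 0.10, adjusted p = 1.70e-08). In all, 15 inflammation genes of 24 rose and 8 fell. Interferon response genes rose in 19 of 35 and fell in 7, or in 4 without mature replicate 1. H2-K1, a class I antigen-presenting molecule, read 14.56 and 14.52 against 16.08 and 15.99 (1.49 ± 0.06, adjusted p = 1.14e-07). H2-D1, a molecule of the same class, rose from 13.33 and 13.28 to 15.63 and 15.48 (2.25 ± 0.08, adjusted p = 4.72e-08). Gbp3, an interferon-induced GTPase, fell from 12.65 and 12.73 to 11.54 and 11.57 (-1.13 ± 0.10, adjusted p = 8.38e-06). Ifi44l read 8.09 and 7.85 against 6.29 and 6.72 (-1.46 ± 0.46, adjusted p = 0.0186), a call lost without immature replicate 1 (-1.34, adjusted p = 0.0789) or mature replicate 1 (-1.25, adjusted p = 0.0981). Ifih1, a sensor of viral RNA, read 11.81 and 11.78 against 11.03 and 11.13 (-0.71 ± 0.23, adjusted p = 0.0207), and its call was lost whichever of the 4 arrays was left out (-0.66 to -0.76, adjusted p from 0.056 to 0.0873).

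Markers of other testis cells were present in both cultures. Of 25 fibroblast and interstitial genes, 19 rose and 4 fell, with a median of 0.80. S100a4, a calcium-binding protein of fibroblasts, rose from 12.73 and 12.80 to 15.56 and 15.57 (2.80 ± 0.06, adjusted p = 2.58e-09). Prrx1, a mesenchymal homeobox gene, rose from 11.31 and 11.14 to 13.34 and 13.30 (2.10 ± 0.07, adjusted p = 2.06e-08). Thy1, the surface antigen of fibroblasts, fell instead, from 14.43 and 14.54 to 11.97 and 12.16 (-2.42 ± 0.16, adjusted p = 1.79e-06). The summed level of the list was 18.86 and 18.87 on the immature arrays and 19.81 and 19.84 on the mature arrays, and the part of such cells in the differences of single matrix genes was not tested. Of 17 peritubular and smooth muscle genes, 10 rose and 3 fell, among them Des, the muscle filament desmin, from 11.67 and 11.55 to 13.13 and 13.11 (1.51 ± 0.08, adjusted p = 2.91e-07). For 14 Leydig cell genes the counts were 6 and 5. Hsd3b1, a steroidogenic enzyme, fell from 12.10 and 12.23 to 10.48 and 10.50 (-1.67 ± 0.14, adjusted p = 7.34e-06), and Hsd11b1, which handles glucocorticoids, rose from 8.61 and 8.52 to 11.13 and 10.94 (2.47 ± 0.10, adjusted p = 5.57e-08).

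Macrophage markers showed no single direction, and endothelial markers were more often lower than higher. Among 22 macrophage genes 7 rose (31.8%) and 6 fell (27.3%), against 30.6% and 41.3% over all tested genes. Fewer rose without immature replicate 1, mature replicate 1 or mature replicate 2. Marco, a scavenger receptor, fell from 13.65 and 13.86 to 10.14 and 10.21 (-3.58 ± 0.11, adjusted p = 1.49e-08), and Aif1, a macrophage calcium-binding protein, rose from 10.09 and 10.02 to 12.13 on both mature arrays (2.08 ± 0.10, adjusted p = 2.50e-07). The list's summed level was 15.71 and 15.72 on the immature arrays against 15.39 and 15.38. Of 18 endothelial genes 10 fell (55.6%) and 4 rose (22.2%), so the share that fell was above that over all tested genes. Flt1, a VEGF receptor, fell from 13.02 and 12.78 to 8.35 and 8.23 (-4.61 ± 0.09, adjusted p = 1.35e-09), while Cdh5, the cadherin of endothelium, read 9.60 and 8.22 against 11.04 and 11.14 (2.18 ± 0.41, adjusted p = 0.00117) and is read in the dim patch. Of 12 granulosa and ovarian fate genes 8 fell and 0 rose by limma (1 at an unadjusted p under 0.05), led by Bmp2, a secreted growth factor, from 11.64 and 11.75 to 8.50 and 8.53 (-3.18 ± 0.10, adjusted p = 1.89e-08). In the fit without immature replicate 1, 1 granulosa gene passed as higher.

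Fibroblasts of different origin served to ask which differences were not shared. Both sex chromosome genes tested were lower in TTF than in MEF, with a median of -3.69. Xist, a gene of that list that did not pass the filter, read 9.25 and 9.27 in MEF and 9.85 and 9.83 in TTF. On the Sertoli arrays it read 4.40 to 5.64. The part of sex in the comparison of the contrasts was not tested. TTF against MEF called 10555 genes (68.6%), and the difference between both contrasts was called for 10228 (66.5%), 5000 with the Sertoli difference higher (32.5%) and 5228 with it lower (34.0%). Among genes changed by 1 or more, 1100 were found in both contrasts. They make up 32.2% of the Sertoli set, where 18.8% of all tested genes changed that much in the fibroblasts, and 38% of the fibroblast set, where 22.2% of all tested genes did so in the Sertoli cultures. Of these, 401 were higher in both, 347 lower in both and 352 opposite. Across genes the differences had a Pearson r of 0.17, a description, since genes are not independent replicates. Cell division genes fell in 33 of 35 in the fibroblasts, with a median of -2.02. For Mki67, TTF read 12 and 11.99 against 14.60 on both MEF arrays, and the Sertoli difference exceeded the fibroblast difference by 2.09 ± 0.06 (adjusted p = 1.78e-08). H19 fell in both contrasts, in TTF from 18.50 and 18.48 to 14.25 and 14.36, with a difference of differences of -0.64 ± 0.13 (adjusted p = 0.00198). Dlk1 fell in the fibroblasts from 15.53 and 15.39 to 15.18 and 15.15, and the Sertoli fall was larger by 4.20 on the log2 scale (adjusted p = 3.59e-09). Krt18 read 13.65 and 13.64 in MEF and 8.98 and 8.77 in TTF, so both contrasts lowered it, the Sertoli one by more (-0.78 ± 0.11, adjusted p = 0.000232). H2-K1 rose in both, and that difference of differences was not called (-0.22 ± 0.09, adjusted p = 0.0657). Most interferon response genes differed between the contrasts. In TTF against MEF 31 of the 35 were higher and 0 lower, with a median of 1.43 against 0.31 in the Sertoli cultures. Their difference of differences was called lower for 27 and higher for 2.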

How the data were processed

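Gene expression was measured on 13 Agilent arrays of mouse RNA, 1 Cy3-labelled sample each, in 7 groups. The deposited values are log2 signals of 62976 features, and the authors had given every array the same distribution (minimum 0.566, median 7.488, 75th percentile 10.473, maximum 18.872 on every array). The submitters' processing notes list limma without a version. How background was corrected, and whether a floor was set, is not given in the sources used here. No detection flags came with the values, and precision is limited by the number of arrays.

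Gene names came from the platform annotation, brought up to date with a RefSeq gene table of GRCm38.p6. Of all features, 31465 had 1 symbol and 31511 none, and 3282 symbols changed (29050 named by accession, 2061 by symbol, 349 by an older name, 5 kept). Of 20738 genes, 6171 had several features, and the feature with the highest mean over 13 arrays stood for the gene. Named features above the array median on at least 2 of the 4 Sertoli arrays were tested.

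All arrays entered 1 limma 3.58.1 fit (lmFit, eBayes, R 4.3.3, 6 residual and 2.43 prior degrees of freedom), with two-sided tests and Benjamini-Hochberg adjustment over 15387 genes. Groups came from the labels. The interaction contrast set mature minus immature against TTF minus MEF, which share no array. The labels give no age for TTF.

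The comparison and its 32 gene lists (745 genes, 715 measured, 660 tested) were chosen with earlier results of these data known, so list counts are descriptions. Named genes are the 12 largest rises and falls among calls with separate arrays, clone and predicted names left out, up to 3 called members per list and direction (those that moved most), and a set of Sertoli, growth and cell cycle genes. Hmgcs1 was added after its values were seen. Summed list levels are log2 of the summed linear signals.

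On simulated data of 15387 genes with 200 changed, the mature against immature test recovered 74% of the genes given a log2 change of 0.5, 88% at 1, 96% at 2 and 100% at 4, with 10 of 15187 unchanged genes called. In the real data 11069 genes were called, a far larger share than was simulated. The simulated rates therefore do not carry over to the real calls. Alternatives covered the filter, the features of a gene, scaling, the arrays in the fit, variance modelling, a minimum difference and leaving out each Sertoli array. Another, without the genes' features in the uneven blocks, was chosen after seeing the data.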

Additional observations from a re-analysis of the deposited data

Results flagged for a closer look

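The difference between mature and immature Sertoli cultures was itself different from that between TTF and MEF for 10228 of 15387 genes, by the limma interaction contrast. Among the genes described, the difference of differences was -0.64 for H19, -4.20 for Dlk1, 2.09 for Mki67 and -0.78 for Krt18. H19, Dlk1, Mki67 and Krt18 fell in both contrasts, so for these genes the sign says which fall was larger. With 2 arrays in each Sertoli group, no array could be tested as standing apart within its group.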

How the results depend on the processing

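The number of genes called, 11069, became 7051 with a filter at the 75th percentile, where 9735 genes were tested, and 2312 with a minimum log2 difference of 1, where 1377 were higher and 935 lower. That setting turned the share of higher calls from 42.6% to 59.6%. Leaving out 1 Sertoli array gave 9731 to 10595, leaving out the uneven blocks 11041, and the other alternatives 10647 to 11485. The interaction count of 10228 became 6415 with the 75th percentile filter and 2887 with the minimum difference, with 9333 to 10097 when 1 array was left out. Where an array was left out, the remaining array took its spread from the other groups. Of 200 named genes, 195 were called. Leaving aside the minimum difference, 179 of these kept direction and call in every alternative that tested them, 14 lost the call in at least 1, and Lamp2 (0.12) and Tpx2 (-0.07) reversed when a gene's features were averaged, since their features differ in sign. Under the minimum difference 65 named genes lost the call. Of 64 list counts, 21 moved by over 1.5 times with the 75th percentile filter and at most 4 in any other alternative but the minimum difference, which moved 52. No paired analysis was possible because the labels give no replicate numbers.

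Each stage has 2 arrays and signal near the median has no known background, so folds of dim genes and small differences such as those of Wt1 and Cldn11 are the least certain. Stage, days in culture, germ cell transcripts and epithelial transcripts move together and cannot be told apart here.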

Other observations

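Steroid and stress genes not described above also differed. Star, which carries cholesterol into mitochondria, read 11.86 and 11.96 in immature and 13.50 and 13.42 in mature cultures (1.54 ± 0.06, adjusted p = 4.38e-08), with 0.09 from its other feature. Ephx1, a detoxifying epoxide hydrolase, rose from 13.86 and 13.77 to 16.10 and 16.13 (2.30 ± 0.08, adjusted p = 3.48e-08). Of 26 glutathione and detoxification genes 10 were higher (38.5%) and 8 lower (30.8%), against 30.6% and 41.3% over all tested genes. Ddit3, a transcription factor of the endoplasmic reticulum stress response, rose from 9.96 and 10.13 to 11.91 and 11.87 (1.84 ± 0.07, adjusted p = 3.85e-08), and Chac1, its known downstream enzyme, from 11.29 and 11.40 to 13.04 and 12.98 (1.67 ± 0.08, adjusted p = 1.57e-07). Of 26 stress and immediate early genes 10 rose and 5 fell.

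Proteases and their inhibitors held some of the widest differences. Serpina3n, a serine protease inhibitor, rose from 10.47 and 10.52 to 14.23 and 14.16 (3.70 ± 0.10, adjusted p = 8.92e-09), and Adamts4, an aggrecan-cleaving protease, from 10.32 and 10.28 to 13.05 and 13 (2.73 ± 0.06, adjusted p = 3.02e-09). Serpine2, an inhibitor of plasminogen activators, fell from 11.83 and 12.09 to 8.59 and 8.83 (-3.25 ± 0.11, adjusted p = 2.66e-08). Of 27 genes of this group 14 rose and 8 fell. Prostaglandin genes rose in 8 of 13 and fell in 4, with Hpgd, which breaks prostaglandins down, going from 8.13 and 8.18 to 10.40 and 10.43 (2.25 ± 0.21, adjusted p = 1.66e-05). The fallers shrank to 2 without mature replicate 1 or immature replicate 2. Glial genes were few, with 3 of 7 higher and 4 lower. Ptprz1, a receptor phosphatase of glia, fell from 13.85 and 13.76 to 9.57 and 9.37 (-4.33 ± 0.09, adjusted p = 2.07e-09). Alas2, the haem enzyme of red cells, was higher in mature cultures, at 7.36 and 7.43 against 10.69 and 10.74 (3.32 ± 0.08, adjusted p = 4.54e-09), while Hba-a1, an alpha globin, was lower, at 9.71 and 9.94 against 6.54 and 6.93 (-3.09 ± 0.13, adjusted p = 9.10e-08). All 4 red cell genes tested were kept through 1 stage only, 2 through the mature and 2 through the immature arrays. Of the 24 hormone receptor and signalling genes, 10 fell and 6 rose, and of the 25 germ cell niche factors 10 went each way.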
